A study of Mus musculus with 3 samples.

Results

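The 10 genes followed here, *Alpl*, *Phospho1*, *Enpp1*, *Spp1*, *Ibsp*, *Bglap*, *Bglap2*, *Dmp1*, *Phex* and *Mepe*, act in the mineralization of bone matrix. They were found by symbol among the 55422 genes of the count tables, and each symbol matched 1 row. The study sequenced single cells from long bones of untreated 3-week-old male mice to describe septoclasts, mononuclear cells that resorb cartilage below the growth plate. Metaphyseal replicates 1 and 2 were prepared from dissected metaphysis of C57BL/6J mice after depletion of lineage-positive, CD45+ and CD117+ cells. The third library holds GFP+ cells sorted from femur and tibia of heterozygous *Pdgfra-H2B-GFP* knock-in mice, in which *Pdgfra* drives a nuclear GFP (the *Pdgfra-GFP* library). Its strain label is C57BL/6 as well. For these cells the paper's methods name the metaphysis, whereas its results name the metaphysis-epiphysis region. Nothing says that the metaphyseal replicates came from separate animals. The level of each library is fitted as a block, so p-values measure the spread that remains around population and library levels. That spread is pooled over the populations and may be technical. Sort, genotype, bone region and library cannot be told apart in the *Pdgfra-GFP* library.

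Bone mineral forms when phosphate and calcium crystallize in and around matrix vesicles and along collagen fibrils. *Alpl*, tissue-nonspecific alkaline phosphatase, cleaves pyrophosphate, an inhibitor of crystal growth, and frees phosphate, while *Enpp1* makes pyrophosphate from ATP and *Phospho1* frees phosphate inside the vesicles. *Spp1* (osteopontin), *Ibsp* (bone sialoprotein), *Dmp1* and *Mepe* encode acidic, secreted phosphoproteins of a single family, the SIBLING proteins, that bind mineral. *Bglap* and *Bglap2* both encode osteocalcin, the vitamin K-dependent protein of mature osteoblasts. *Phex* encodes a membrane peptidase whose loss causes phosphate wasting, and *Dmp1*, *Phex* and *Mepe* are known as genes of late osteoblasts and osteocytes, the cells that osteoblasts become once they are enclosed in mineral.

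Populations were gated by marker genes, none of which is among the 10 genes except *Dmp1*. Each name stands for cells that resemble that type by its markers (osteoblast-like and so on). Words such as rise, fall and step compare gated cells of mice of the same age. No order of the populations in time was tested. Listing first metaphyseal replicate 1, then replicate 2 and then *Pdgfra-GFP*, the gates held 73, 55 and 1342 metaphyseal stroma cells, 96, 87 and 1026 osteoblasts, 64, 44 and 336 *Dmp1* cells, 40, 34 and 1586 chondrocytes, 10, 12 and 127 septoclasts and 533, 498 and 3254 marrow stroma cells, of 2389, 2011 and 11319 cells in all. *Dmp1* cells are osteoblast-gated cells with at least 2 *Dmp1* UMIs (unique molecular identifiers, which count captured mRNA molecules), and osteoblasts are those with none. Median depth per cell was 9072, 9128 and 5947 UMIs in metaphyseal stroma, 19691, 20103 and 10816.5 in osteoblasts and 23196, 23993 and 12730 in *Dmp1* cells. The summed osteoblast markers ran from 88217.5 to 98285 CPM in osteoblasts (counts of UMIs per 1000000 UMIs of the population) and from 3604 to 4881 in metaphyseal stroma, and the chondrocyte markers from 54165 to 66385.5 in chondrocytes. Of 6 osteocyte markers that were not used to gate, *Fgf23* had no UMI in the *Dmp1* cells. *Sost* had none there in both metaphyseal libraries and was at 24.1 CPM in *Pdgfra-GFP*. The others (*Pdpn*, *Dkk1*, *Irx5* and *Ackr3*) were higher in the few cells richest in *Dmp1* than in osteoblasts without it, as given below. Since the markers did not all go the same way, the *Dmp1* cells are not named osteocytes. Cells of the metaphyseal replicates shared 9 and 10 barcodes with those of the *Pdgfra-GFP* library, where independent draws would share 3.98 and 3.35.

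RNA from lysed cells reaches every droplet, so levels were set beside endothelial and haematopoietic cells, which are not of the osteoblast lineage. Whether these cells express some of the genes themselves was not tested. Endothelial cells held 26.6, 25.1 and 498 *Bglap* CPM and 57.4, 244 and 263 *Spp1* CPM. For *Alpl* the endothelial values were 3.61, 2.14 and 21.6, and for *Phex* 0.289, 0 and 1.31. Near-empty droplets, with at most 100 UMIs, held 3255, 5201 and 23891 *Bglap* CPM. All levels below are CPM of the summed UMIs of a population, in this order of libraries. Fitted log2 fold changes rest on TMM scaling (edgeR's quasi-likelihood test, p-values with Benjamini-Hochberg adjustment), which sets the bulk of genes level between populations. On the scale of total UMIs the median of all genes shifts by -0.72 on the log2 scale in osteoblasts against metaphyseal stroma, -0.39 in chondrocytes against metaphyseal stroma and -0.14 in *Dmp1* cells against osteoblasts, so fitted values and CPM differ by about that much.

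All 10 genes are protein-coding in the Gencode M21 annotation of GRCm38, and the SIBLING genes *Dmp1* (chr5:104202613-104214102), *Ibsp* (chr5:104299171-104311469), *Mepe* (chr5:104325329-104338611) and *Spp1* (chr5:104435118-104441050) lie on the plus strand within 238438 bases. *Bglap2* (chr3:88377736-88378699) and *Bglap* (chr3:88383501-88384464) lie side by side on the minus strand of chromosome 3, with another copy, *Bglap3*, nearby. *Alpl* lies at chr4:137741733-137796384, *Enpp1* at chr10:24637914-24712159, *Phospho1* at chr11:95824499-95832140 and *Phex* at chrX:157162075-157415312. The coding sequences of *Bglap* and *Bglap2* are printed because their counts cannot be fully told apart. Both have 288 bases and differ at 4, shown in capitals, 5′ to 3′ on the coding strand (Gencode M21 transcripts).
Bglap: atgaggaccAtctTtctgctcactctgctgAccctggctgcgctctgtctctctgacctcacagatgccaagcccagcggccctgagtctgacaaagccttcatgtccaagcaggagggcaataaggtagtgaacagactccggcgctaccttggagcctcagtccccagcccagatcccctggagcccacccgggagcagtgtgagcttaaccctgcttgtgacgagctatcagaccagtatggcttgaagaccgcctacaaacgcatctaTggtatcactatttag
Bglap2: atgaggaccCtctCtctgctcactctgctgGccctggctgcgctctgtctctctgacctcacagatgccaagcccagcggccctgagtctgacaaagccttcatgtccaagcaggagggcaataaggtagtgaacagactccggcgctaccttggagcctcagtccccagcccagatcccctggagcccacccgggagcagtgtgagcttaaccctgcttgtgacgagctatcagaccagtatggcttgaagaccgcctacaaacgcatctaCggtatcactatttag
Of the 90-base stretches of the *Bglap* transcript, 60.4% occur letter for letter in *Bglap2*, and the longest shared stretch has 241 bases. A read from such a stretch fits both genes and is not counted for either, so the level of each copy is uncertain.

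The window before the start of *Bglap*, the member with the largest osteoblast difference below, is printed with that of *Ibsp*, which also rose in osteoblasts (RefSeq windows, GRCm38.p6, 250 bases upstream of the annotated start, 5′ to 3′ on the gene's strand). Capitals mark the core motif of RUNX factors, ACCACA or its reverse complement TGTGGT, and *Runx2* is the master regulator of the osteoblast lineage. *Bglap* lies on the minus strand (chr3:88384467-88384716) and *Ibsp* on the plus strand (chr5:104299037-104299286).
Bglap: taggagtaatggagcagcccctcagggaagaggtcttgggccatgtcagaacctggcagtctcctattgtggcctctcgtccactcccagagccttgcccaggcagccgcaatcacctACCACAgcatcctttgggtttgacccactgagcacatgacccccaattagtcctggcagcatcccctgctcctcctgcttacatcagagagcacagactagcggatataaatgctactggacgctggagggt
Ibsp: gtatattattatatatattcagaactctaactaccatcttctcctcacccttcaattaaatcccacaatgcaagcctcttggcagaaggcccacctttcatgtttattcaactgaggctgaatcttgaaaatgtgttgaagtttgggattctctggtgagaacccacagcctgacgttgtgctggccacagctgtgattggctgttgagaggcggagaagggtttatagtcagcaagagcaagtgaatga
The motif begins 132 bases before the start of *Bglap* and was not found in the *Ibsp* window. It occurs in 5 of the 12 windows of 9 members (*Enpp1*, *Spp1*, *Bglap*, *Dmp1* and *Mepe*) and in 14.0% of all 32817 windows. *Bglap2* has no window in the table. A match of these 6 letters is a description of the sequence only.

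**Figure D1:**
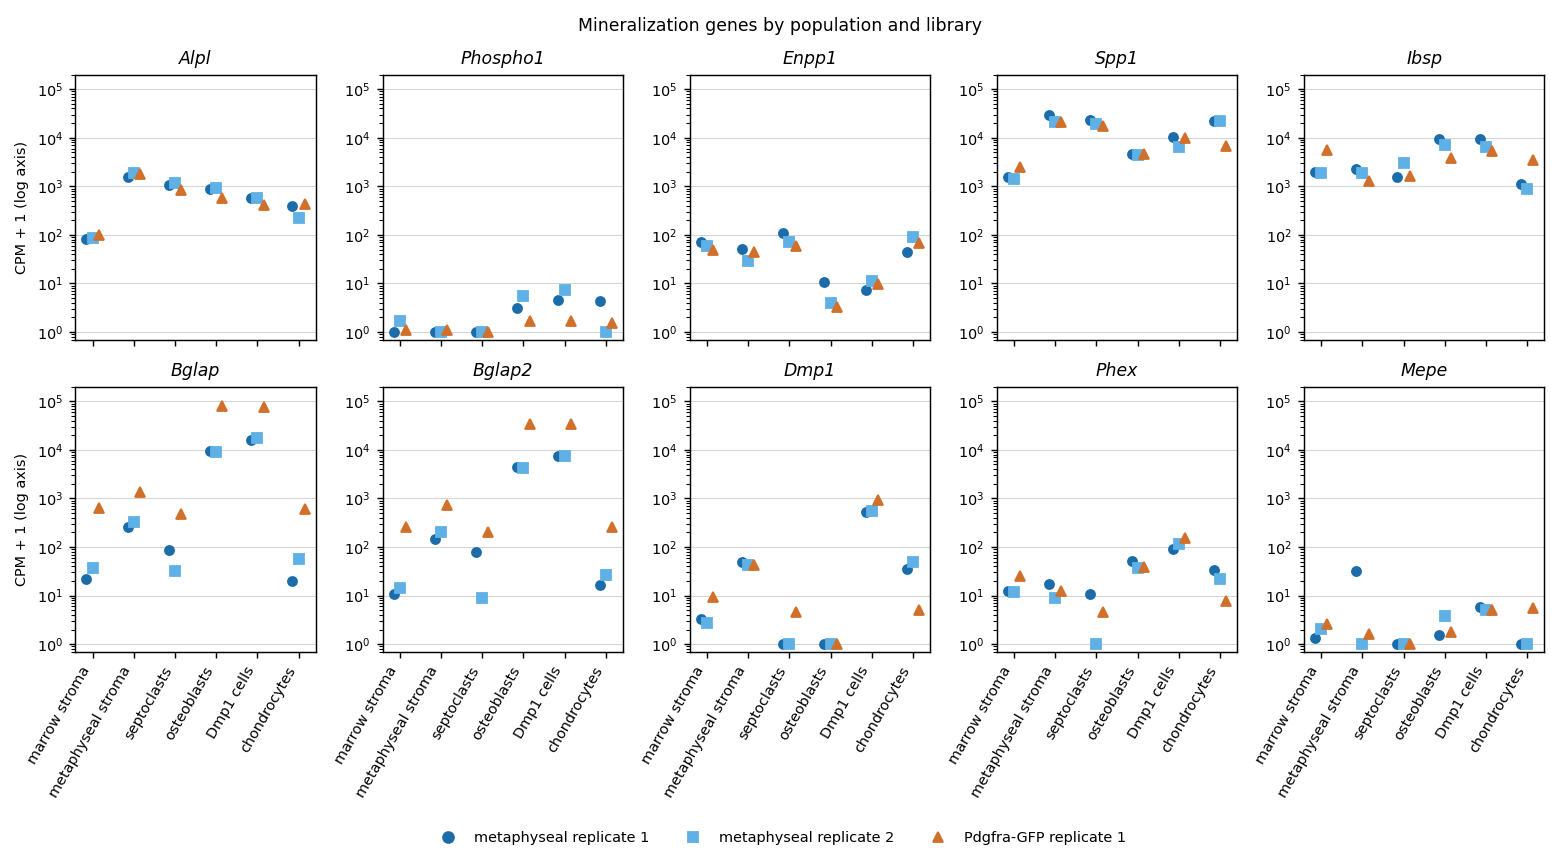
Summed CPM plus 1 (log axis) of the 10 genes in 6 gated populations, with 1 point per library (circles and squares: metaphyseal replicates 1 and 2, triangles: *Pdgfra-GFP* library). *Alpl* and *Spp1* have their highest mean in metaphyseal stroma, *Bglap*, *Bglap2*, *Ibsp* and *Phex* in osteoblasts and *Dmp1* cells, and *Phospho1* and *Mepe* lie near the floor throughout.

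Between metaphyseal stroma and osteoblasts, *Bglap*, *Bglap2*, *Ibsp* and *Phex* rose and *Alpl*, *Enpp1* and *Spp1* fell. Of the 9 members that did not gate these cells, 7 passed the filter on low counts, and 4 were called higher and 3 lower, beside 18.8% and 22.8% of the 11232 genes tested. On the scale of total UMIs the same 4 members were higher and the same 3 lower, while 10.3% of all called genes were higher, against 45.1% with TMM. *Phospho1* and *Mepe* had too few UMIs to be tested. The median log2 difference was 2.49 over these 7 members and -0.10 over all genes tested. All of these calls but 1 held in all 16 alternative analyses. The exception was *Alpl*.

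**Figure D2:**
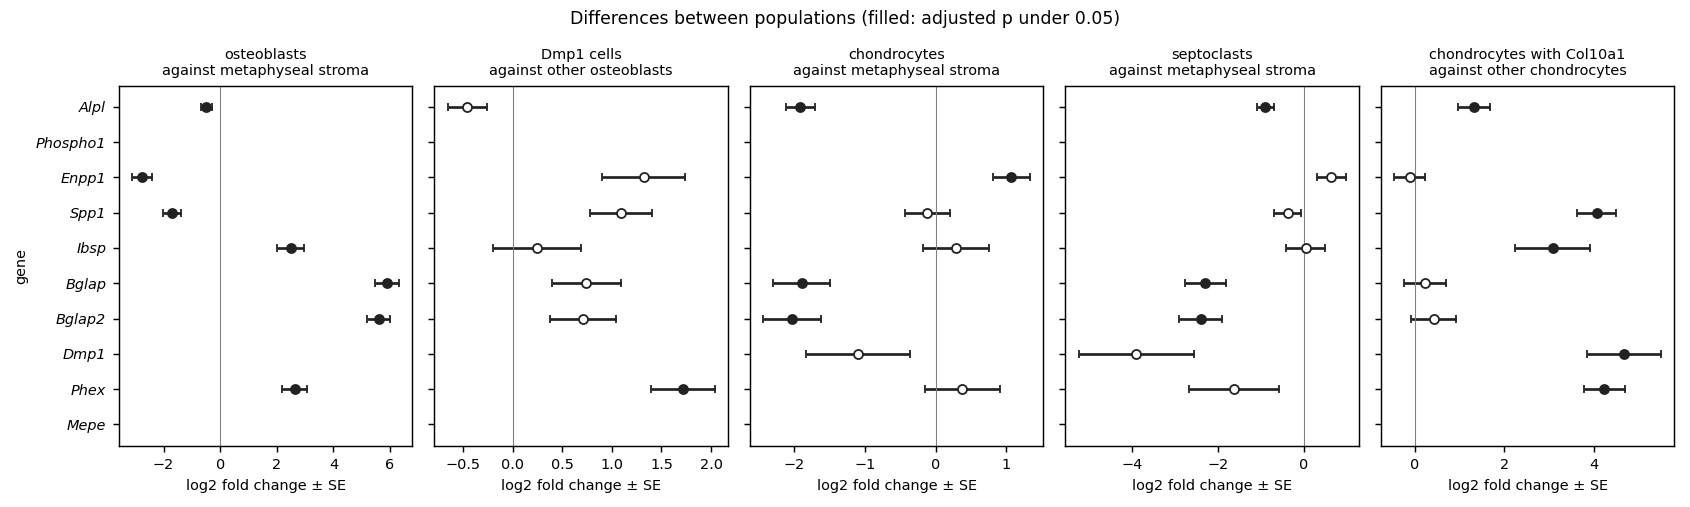
Log2 fold change with its SE for each member in the 5 comparisons (edgeR, 3 libraries, library as block), filled where the adjusted p is under 0.05 and missing where a gene was not tested or gated the cells. In osteoblasts *Bglap* and *Bglap2* lie farthest right, whereas among *Dmp1* cells only *Phex* is filled.

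Among the enzymes of phosphate, *Alpl* was highest in metaphyseal stroma, with 1549.9 and 1867 in the metaphyseal libraries and 1783 in the *Pdgfra-GFP* library. Osteoblasts held 869.8, 936 and 579 and *Dmp1* cells 568, 561 and 421, so the level stepped down in every library, and the ranges of these 3 populations did not overlap. Osteoblasts were lower than metaphyseal stroma (log2 fold change -0.50 ± 0.20, adjusted p = 0.0473), but the call was lost in 7 of 16 alternatives, among them without metaphyseal replicate 1 (adjusted p = 0.147) and without replicate 2 (adjusted p = 0.0656). Between *Dmp1* cells and osteoblasts the difference did not pass the test (log2 fold change -0.46 ± 0.20, adjusted p = 0.708). *Alpl* was detected in 93.2%, 98.2% and 94.6% of metaphyseal stroma cells and 100%, 100% and 95.0% of osteoblasts, against 2.25%, 1.36% and 10.4% of endothelial cells at a median of 5839, 6049 and 4606.5 UMIs. Marrow stroma, the *Lepr*- and *Cxcl12*-rich cells, was lowest of the 6 populations at 80.2, 84.0 and 98.0, which is still above the endothelial level.

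*Enpp1*, whose product makes pyrophosphate, was scarce in osteoblasts. They held 9.71, 2.88 and 2.29 CPM, against 50.1, 28.2 and 43.2 in metaphyseal stroma, and the groups did not overlap. The difference passed the test (log2 fold change -2.77 ± 0.34, adjusted p = 1.55e-06) and held in all 16 alternatives. *Dmp1* cells held 6.27, 10.4 and 8.89, with overlap between the groups (log2 fold change 1.32 ± 0.42, adjusted p = 0.454). Without metaphyseal replicate 1, or with the *Dmp1* gate on thinned cells, this last difference passed (without replicate 1, log2 fold change 2.01, adjusted p = 0.0341). Septoclasts, chondrocytes and marrow stroma had the highest means, of 78.2 ± 25.1, 66.8 ± 22.4 and 58.5 ± 10.3 (SD, n = 3 libraries), and these 3 neighbours overlapped. The difference between septoclasts and metaphyseal stroma did not pass the test (log2 fold change 0.64 ± 0.33, adjusted p = 0.392). Septoclasts of the metaphyseal libraries held 11 and 9 *Enpp1* UMIs. *Alpl* and *Enpp1*, which act on pyrophosphate in opposite directions, were thus both lower in osteoblasts than in metaphyseal stroma.

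*Phospho1* was at the limit of detection. The sums held 2.16, 4.62 and 0.706 CPM in osteoblasts and 3.48, 6.25 and 0.702 in *Dmp1* cells, from 14, 19 and 25 UMIs over all cells of each library. Metaphyseal stroma had none in both metaphyseal libraries, where 3 UMIs would have given 4.42 and 6.04 CPM. A difference of the size seen in osteoblasts was therefore not detectable at this depth in metaphyseal replicate 1 or 2. In the deeper *Pdgfra-GFP* library metaphyseal stroma held 1 UMI, or 0.121 CPM, where 3 UMIs would have given 0.363. Osteoblasts of that library held 8 UMIs, and the difference was not tested.

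Of the SIBLING genes, *Spp1* and *Ibsp* ran in opposite directions. *Spp1* had its highest mean over the 3 libraries in metaphyseal stroma, with 29610.1 and 20810 in the metaphyseal libraries and 20848 in the *Pdgfra-GFP* library, although chondrocytes stood above it in metaphyseal replicate 2 and, with cells thinned to 2000 UMIs, in their mean. It fell to 4724, 4392 and 4552 in osteoblasts (log2 fold change -1.71 ± 0.32, adjusted p = 2.17e-04). The osteoblast values lay within a narrow range in the 3 libraries and far below those of metaphyseal stroma. In *Dmp1* cells *Spp1* was at 10263, 6305 and 9888, above osteoblasts in 3 of 3 libraries with no overlap. That difference missed the threshold over all genes (log2 fold change 1.09 ± 0.32, adjusted p = 0.368), and passed without the *Pdgfra-GFP* library (log2 fold change 1.03, adjusted p = 6.68e-06) and with no filter on low counts (adjusted p = 0.00273). Endothelial cells reached at most 263 *Spp1* CPM and haematopoietic cells at most 771, far under each of these levels.

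*Ibsp* rose from 2315, 1869.5 and 1261 in metaphyseal stroma to 9212, 7093 and 3755 in osteoblasts (log2 fold change 2.49 ± 0.47, adjusted p = 2.19e-04). The osteoblast value of the *Pdgfra-GFP* library was the lowest of its 3, but lay above every metaphyseal stroma value. *Dmp1* cells held 9404, 6466 and 5403 and the difference from osteoblasts did not pass the test (log2 fold change 0.25 ± 0.44, adjusted p = 1). Marrow stroma carried *Ibsp* too, at 1948, 1907 and 5537, so that in the *Pdgfra-GFP* library it stood above the osteoblasts of the same library. The endothelial level there was 76.7.

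Osteocalcin set osteoblasts and *Dmp1* cells apart from the other gated populations. *Bglap* was at 9498 and 9033 in the metaphyseal libraries and 79557 in the *Pdgfra-GFP* library in osteoblasts, and at 262, 322 and 1389 in metaphyseal stroma (log2 fold change 5.89 ± 0.43, adjusted p = 1.45e-09). *Bglap2* ran in parallel, with 4353, 4324 and 34614 in osteoblasts and 144, 203 and 732 in metaphyseal stroma (log2 fold change 5.60 ± 0.41, adjusted p = 1.50e-09). No library overlapped between these groups for either gene. The *Pdgfra-GFP* library stood apart, with 8.59 times the mean *Bglap* level of the metaphyseal libraries in osteoblasts, 4.53 times in *Dmp1* cells and 4.75 times in metaphyseal stroma. Its endothelial cells also held more *Bglap*, 498 against 26.6 and 25.1, and sort, genotype, bone region and library cannot be told apart as sources of the gap. Without this library the *Bglap* difference was 5.53 on the log2 scale (adjusted p = 2.38e-19). In the metaphyseal libraries the 10 cells with the most *Bglap* held 52.4% and 44.6% of its UMIs, against 3.17% in the *Pdgfra-GFP* library. The libraries had 476, 504 and 10361 cells with a *Bglap* UMI. A fixed 10 cells is thus a far smaller part of the *Pdgfra-GFP* library, and these shares cannot be compared directly.

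The counts of *Bglap* and *Bglap2* stood in a like ratio in all libraries. In osteoblasts *Bglap* had 2.18, 2.09 and 2.30 UMIs per *Bglap2* UMI, and in *Dmp1* cells 2.12, 2.29 and 2.21. *Bglap3* was rarer, with 1 UMI per 79.3, 92.6 and 28.9 *Bglap* UMIs in osteoblasts. In marrow stroma, septoclasts, chondrocytes and endothelial cells of the *Pdgfra-GFP* library there was 1 per 4.72, 3.70, 5.43 and 4.31. Metaphyseal stroma of that library had 1 per 8.66. Within that library, *Bglap3* thus had a larger share of the counted osteocalcin UMIs in these populations than in osteoblasts. Endothelial cells, which should lack osteocalcin, showed this too, and the source of the larger share was not tested.

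**Figure D3:**
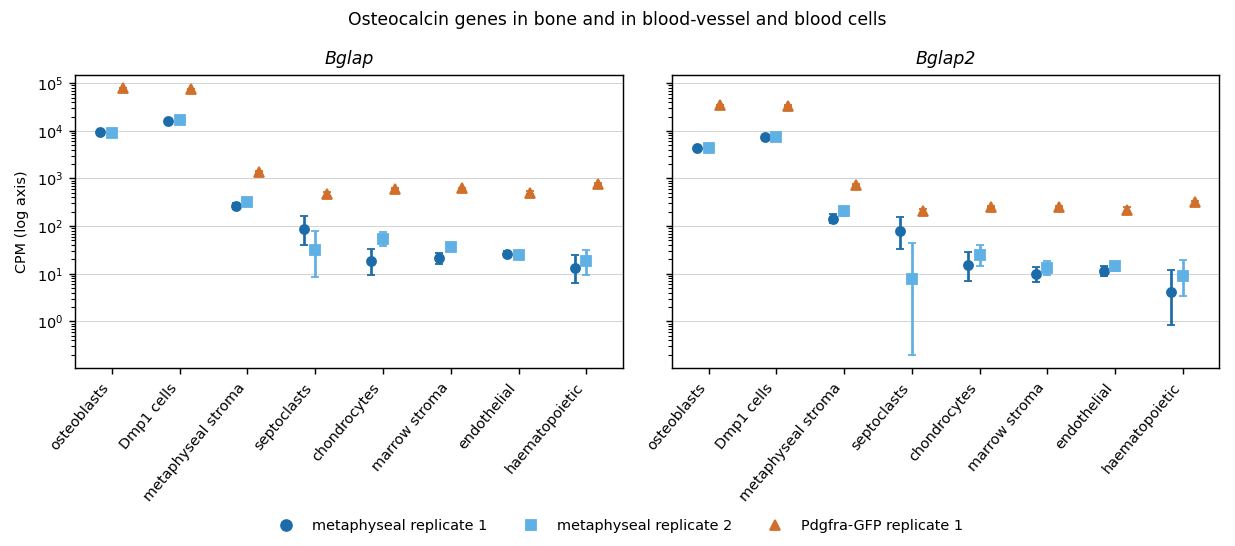
*Bglap* and *Bglap2* CPM (log axis) by population and library, with exact 95% Poisson intervals that cover counting error only. In each library osteoblasts and *Dmp1* cells stand far above metaphyseal stroma, and in the *Pdgfra-GFP* library marrow stroma, septoclasts and chondrocytes lie at the level of endothelial and haematopoietic cells.

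Background limits what can be said of osteocalcin outside the osteoblasts. In the *Pdgfra-GFP* library *Bglap* was at 469 in septoclasts, 612 in chondrocytes and 625 in marrow stroma, beside 498 in endothelial and 778 in haematopoietic cells. These values lay near those of endothelial and haematopoietic cells, and whether they are background was not tested. *Bglap3* had a larger share in these cells than in osteoblasts. Near-empty droplets of the *Pdgfra-GFP* library held 158776 *Bglap* and 10842 *Bglap3* UMIs. Metaphyseal stroma stood above endothelial and haematopoietic cells in all 3 libraries.

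Of the late genes, *Phex* increased at both steps. It was at 16.2, 8.05 and 11.3 in metaphyseal stroma, 51.8, 35.8 and 38.7 in osteoblasts and 90.6, 117 and 155 in *Dmp1* cells, and the ranges of these 3 populations did not overlap. The first step passed the test (log2 fold change 2.63 ± 0.44, adjusted p = 5.63e-05), also in all 16 alternatives. In *Dmp1* cells *Phex* was the only member called of the 7 tested (log2 fold change 1.71 ± 0.32, adjusted p = 0.0262), beside 0.116% of genes called higher and 0.0534% called lower. The median log2 difference in this comparison was 0.74 over the 7 members and -0.01 over all genes. The call of *Phex* was lost in 6 of 15 alternatives, among them without metaphyseal replicate 2 (adjusted p = 0.444) with DESeq2 (adjusted p = 0.122) and on the scale of total UMIs (adjusted p = 0.0609), while its log2 difference stayed between 1.41 and 2.57.

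*Bglap* and *Bglap2* did not move the same way in all libraries between osteoblasts and *Dmp1* cells. *Bglap* was 1.68 and 1.91 times as high in the *Dmp1* cells of the metaphyseal libraries and 0.943 times in the *Pdgfra-GFP* library. Over all libraries the difference was not called (log2 fold change 0.74 ± 0.35, adjusted p = 0.812). Without the *Pdgfra-GFP* library it was (log2 fold change 1.03, adjusted p = 6.68e-06), and with the gate set on cells thinned to 2000 UMIs its sign turned (log2 fold change -1.22, adjusted p = 0.252). *Dmp1* cells had a higher median depth than osteoblasts in every library, and its part in the result was not tested beyond this gate. Few cells carried much of the osteocalcin in the metaphyseal libraries. The 10 cells with the most *Bglap* held 52.4%, 44.6% and 3.17% of its UMIs in all cells of each library. They are 10 of 476, 504 and 10361 cells with a *Bglap* UMI, so the shares cannot be compared directly between libraries. For *Bglap2* the shares were 52.1%, 43.8% and 3.5%. The part of these cells in the ratios was not tested.

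*Dmp1* itself gated the cells, so its levels are a description. It was at 533, 563 and 935 in *Dmp1* cells, at 0 in osteoblasts by construction, and at 47.1, 42.3 and 41.7 in metaphyseal stroma, where it did not gate. The stroma sums lay close together and above the 0.578, 0.178 and 2.62 of endothelial cells, but they rest on a few cells, since 9.59%, 12.7% and 7.38% of stroma cells had a *Dmp1* UMI and 4, 3 and 40 cells had at least 2. When osteoblast-gated cells were arranged by their *Dmp1* UMIs, the groups with 20 or more held 7, 7 and 45 cells. In those cells *Phex* reached 307, 274 and 732, against 48.0, 95.2 and 56.0 in cells with 2 to 4 *Dmp1* UMIs. *Alpl* ran the other way, with 518, 351 and 232 against 588, 587 and 444. Both directions held in every library, whereas *Spp1* was higher in the top group in metaphyseal replicate 1 and in *Pdgfra-GFP* and lower in metaphyseal replicate 2, at 11142.5, 1993 and 14788 against 7374, 5844 and 7584. *Bglap* had no common direction, with 1555, 21567 and 37726 against 16078, 16497 and 86699.8. Median depth was 27113, 15895 and 12037 UMIs with 20 or more and 22950, 24049 and 12643.5 with 2 to 4.

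Of the osteocyte markers that were not used to gate, *Irx5*, *Dkk1*, *Pdpn* and *Ackr3* were higher in this top group than in cells without *Dmp1* in every library, to differing extents. In the *Pdgfra-GFP* library *Dkk1*, a secreted WNT inhibitor, stood at 723 and *Irx5*, a homeobox factor, at 613, against 9.89 and 42.5 in cells without *Dmp1*. *Sost*, the sclerostin gene of osteocytes, reached 187 there and had no UMI in the top group of either metaphyseal library. *Pdpn* and *Ackr3* were at 359 and 409 in that library, against 19.7 and 2.47. *Irx5* was at 145 and 154 in the top groups of the metaphyseal libraries, against 78.2 and 46.7 without *Dmp1*. There *Dkk1* was at 36.2 and 168 against 10.2 and 4.04, and *Pdpn* at 36.2 and 63.2 against 4.85 and 8.65. *Ackr3* was at 60.3 and 14.0 against 2.16 and 2.31. These metaphyseal top groups hold 7 cells each, and their values of *Irx5*, *Dkk1*, *Pdpn* and *Ackr3* rest on 2 to 24 UMIs. A UMI of *Pdpn* was seen in only 14.3% of these cells in each replicate. For *Dkk1* the shares of cells were 28.6% and 14.3%, and for *Ackr3* 28.6% in each. For *Irx5* they were 71.4% and 42.9%, close to the 68.8% and 44.8% of cells without *Dmp1*.

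**Figure D4:**
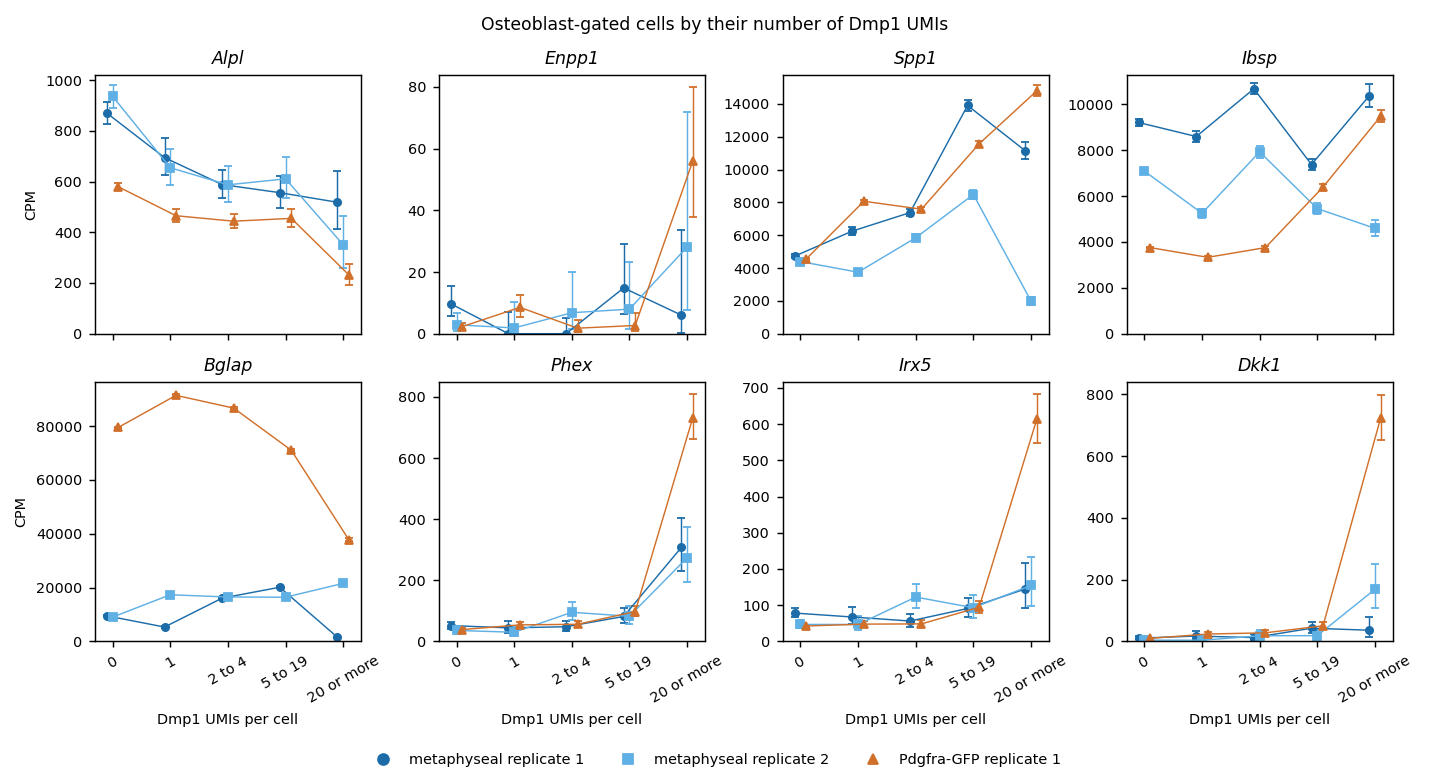
CPM in osteoblast-gated cells grouped by *Dmp1* UMIs per cell, with exact 95% Poisson intervals of the summed counts, which cover counting error only. *Phex* is highest and *Alpl* lowest at 20 or more *Dmp1* UMIs in all 3 libraries, and *Irx5* and *Dkk1* rise most in the *Pdgfra-GFP* library.

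*Mepe* was concentrated in very few cells, and most of its UMIs lay outside the gated populations. The libraries held 196, 655 and 422 *Mepe* UMIs in 10, 21 and 70 cells, and the 10 highest cells carried 100%, 98.3% and 83.4% of them. A single cell carried 48.0%, 52.2% and 46.9%. The cells in no population held 84.7%, 98.2% and 73.0% of the *Mepe* UMIs, while *Dmp1* cells held 3.57%, 0.611% and 4.03%. In the gated sums *Mepe* was low, with 4.88, 4.17 and 3.98 in *Dmp1* cells and 0.539, 2.88 and 0.794 in osteoblasts, and its highest value, 30.9 in metaphyseal stroma of metaphyseal replicate 1, had no counterpart in replicate 2, where no UMI was seen. No order of populations is read from these sums.

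Part of the *Dmp1* signal lay outside the gates as well, 38.9%, 53.8% and 29.6% of its UMIs against 54.9%, 39.8% and 59.3% in *Dmp1* cells. Of the cells in no population, 16, 14 and 104 had at least 2 *Dmp1* UMIs. Of these, 4, 10 and 39 lay under the osteoblast gate, and the rest passed another gate as well or carried markers of other cells. Their sums held 533, 3858 and 260.1 *Mepe* CPM, 186, 217 and 145 of *Phex* and 32093, 72455 and 41263 of *Spp1*, so that *Mepe* and *Spp1* were above their levels in the gated *Dmp1* cells in every library and *Phex* in both metaphyseal libraries. *Bglap* was at 9334, 23072 and 37644. *Col10a1*, of hypertrophic chondrocytes, was at 3.37, 3587 and 12.3 in them and *Acan*, of cartilage, at 0, 217 and 98.4, so that in metaphyseal replicate 2 the high *Spp1* stood beside a high *Col10a1* (in 28.6% of the 14 cells). The part of chondrocytes in these values was not tested. These cells were chosen by *Dmp1*, and no test was made on them.

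Chondrocytes, the cells of cartilage, carried less *Alpl* and osteocalcin than metaphyseal stroma and more *Enpp1*. Of the 10 members, 8 passed the filter, and 1 was called higher and 3 lower, beside 19.0% and 22.1% of 11233 genes. The median log2 difference was -0.61 over these 8 members and -0.07 over all genes. *Alpl* was at 386, 220.1 and 438 in chondrocytes (log2 fold change -1.92 ± 0.20, adjusted p = 1.57e-07), below metaphyseal stroma in 3 of 3 libraries. *Enpp1* was at 43.9, 88.6 and 67.9 (log2 fold change 1.08 ± 0.26, adjusted p = 0.00243), with overlap between the groups, and its call was lost without metaphyseal replicate 2 (adjusted p = 0.0587). *Bglap* (log2 fold change -1.90 ± 0.40, adjusted p = 6.48e-04) and *Bglap2* (log2 fold change -2.03 ± 0.41, adjusted p = 4.27e-04) were lower. Chondrocytes held a mean of 36.6 *Bglap* CPM over the metaphyseal libraries and 612 in *Pdgfra-GFP*, beside 25.9 and 498 in endothelial cells. Without the library block both lost their call (adjusted p = 0.644 and 0.5).

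The libraries held different shares of hypertrophic chondrocytes. Hypertrophic chondrocytes are the last stage before cartilage is mineralized and replaced, and *Col10a1* encodes their collagen. Cells with at least 10 *Col10a1* UMIs numbered 22, 12 and 75, and those with at most 1 numbered 18, 20 and 1483. *Spp1* in chondrocytes as a whole was at 21608, 22269.8 and 6637, and its difference from metaphyseal stroma did not pass the test (log2 fold change -0.11 ± 0.31, adjusted p = 0.819). *Ibsp* was at 1105, 867 and 3535, lower than stroma in both metaphyseal libraries and higher in the *Pdgfra-GFP* library (log2 fold change 0.29 ± 0.46, adjusted p = 0.666), and without the latter it was called lower (log2 fold change -0.72, adjusted p = 0.00169). *Phex* was called higher without that library (log2 fold change 1.40, adjusted p = 0.025), and *Dmp1* was called lower without metaphyseal replicate 2 (log2 fold change -2.09, adjusted p = 0.0469).

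Within the chondrocytes, those with *Col10a1* carried 5 of the members at higher levels. Of the 8 members that passed the filter 5 were called higher and none lower (none by DESeq2 or at an unadjusted p under 0.05 either), beside 9.08% and 10.0% of 10491 genes. The median log2 difference was 2.20 over the 8 and -0.09 over all genes. *Spp1* rose from 1945, 1708 and 5304 in other chondrocytes to 52248, 77263 and 20823 in those with *Col10a1* (log2 fold change 4.06 ± 0.44, adjusted p = 9.46e-07). *Ibsp* rose from 127, 15.8 and 2302 to 2629, 3153 and 12720 (log2 fold change 3.09 ± 0.84, adjusted p = 0.0117), with far higher values in both groups of the *Pdgfra-GFP* library.

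Of the late osteoblast genes, *Phex* and *Dmp1* were higher in these cells too, whereas *Mepe* was at 0, 0 and 4.58 in other chondrocytes and 0, 0 and 5.58 in those with *Col10a1*. *Phex* went from 0, 2.26 and 3.27 to 82.0, 71.0 and 41.9 (log2 fold change 4.24 ± 0.46, adjusted p = 9.60e-07) and *Dmp1* from 0, 0 and 3.11 to 86.4, 180.3 and 14.9 (log2 fold change 4.68 ± 0.83, adjusted p = 4.39e-04). *Dmp1* had no UMI in other chondrocytes of the metaphyseal libraries, so its fitted value is no bound, and the *Pdgfra-GFP* level with *Col10a1* was the lowest of the 3. *Alpl* rose from 294, 165 and 341 to 531, 240.4 and 1363 (log2 fold change 1.32 ± 0.36, adjusted p = 0.012), and the call was lost without metaphyseal replicate 1 (adjusted p = 0.09) or the *Pdgfra-GFP* library (adjusted p = 0.0895). That of *Ibsp* was lost without metaphyseal replicate 1 (adjusted p = 0.125) or 2 (adjusted p = 0.0599). That of *Dmp1* was lost with 1 more marker in every gate (adjusted p = 0.0841). *Spp1* and *Phex* kept theirs in all 13 alternatives. The summed osteoblast markers were 224 to 3599 in the cells with *Col10a1* and 265 to 4703 in other chondrocytes. The summed osteocyte markers went from 30.5, 22.6 and 78.6 to 514, 929 and 360.1, carried by *Irx5* (229, 454 and 229 with *Col10a1*) and *Ackr3* (285, 475 and 114), while *Fgf23* was at 0 throughout and *Sost* at 0, 0 and 1.86. The part of osteoblasts or osteocytes caught with these cells was not tested. Doublets were called in 1.13%, 0.298% and 1.46% of cells, where 1.911%, 1.609% and 9.055% were expected from the number of cells. Removing the called doublets changed none of the calls of members in any comparison. The part of doublets that were not called was not tested.

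**Figure D5:**
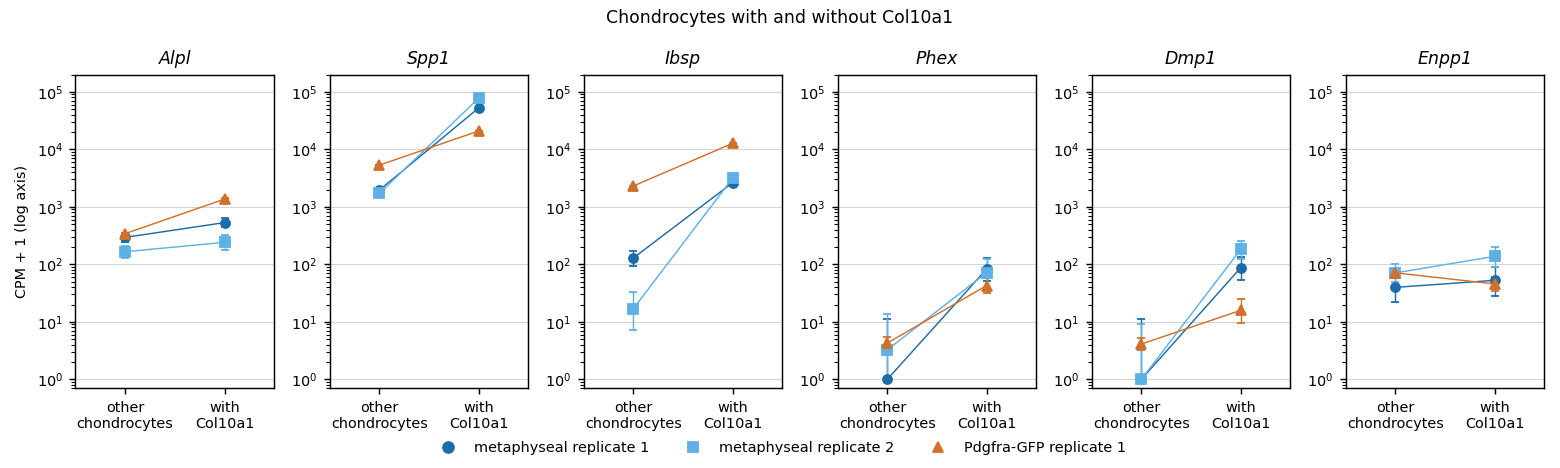
CPM plus 1 (log axis) of 6 genes in other chondrocytes and in chondrocytes with *Col10a1*, joined by library, with exact 95% Poisson intervals for counting error only. *Alpl*, *Spp1*, *Ibsp*, *Phex* and *Dmp1* go up in each of the 3 libraries, and *Enpp1* goes up in the metaphyseal libraries and down in the *Pdgfra-GFP* library.

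Septoclasts held less *Alpl* and less osteocalcin than metaphyseal stroma. These 3 comparisons with metaphyseal stroma (osteoblasts, chondrocytes and septoclasts) share its samples. Of the 10 members 8 passed the filter, none was called higher and 3 were called lower by edgeR, beside 2.11% and 2.63% of 11233 genes. None was higher at an unadjusted p under 0.05 or by DESeq2 either. The median log2 difference was -1.26 over these 8 members and -0.08 over all genes. Of these members, *Phex* and *Dmp1* rest on 5 and 4 septoclast UMIs in all, and *Bglap* and *Bglap2* are near copies. *Phex* was not called (log2 fold change -1.63 ± 1.04, adjusted p = 0.529). No fall of the members as a set is read from this median. *Alpl* was at 1063, 1196 and 820.2 (log2 fold change -0.89 ± 0.20, adjusted p = 0.0111), below metaphyseal stroma in 3 of 3 libraries. *Spp1*, at 22949, 19443 and 17252, overlapped with the stroma range (log2 fold change -0.37 ± 0.31, adjusted p = 0.678), and so did *Ibsp*, at 1556, 3009 and 1595 (log2 fold change 0.05 ± 0.46, adjusted p = 1). *Bglap*, at 87.0, 31.3 and 469, was lower (log2 fold change -2.29 ± 0.47, adjusted p = 0.00531), and so was *Bglap2* (log2 fold change -2.40 ± 0.50, adjusted p = 0.00557). The endothelial *Bglap* levels were 26.6, 25.1 and 498. *Dmp1* had no UMI in the 10 and 12 septoclasts of the metaphyseal libraries, and 4 UMIs in the 127 of *Pdgfra-GFP*. Calls were lost for *Alpl* without metaphyseal replicate 1 (adjusted p = 0.0923) and on the scale of total UMIs (adjusted p = 0.0579), for *Bglap* and *Bglap2* without replicate 2 (adjusted p = 0.122 and 0.109), and for these 3 genes without the library block (adjusted p = 0.0976, 0.892 and 0.846). *Dmp1* was called lower without the *Pdgfra-GFP* library (adjusted p = 0.00729), with no filter on low counts and with DESeq2.

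Other genes of mineralization, from a list of 30 of which 29 are in the tables, were counted for comparison. Between metaphyseal stroma and osteoblasts 24 passed the filter, of which 9 were higher and 8 lower, beside 18.8% and 22.8% of all genes tested. Among those that rose, *Smpd3*, a sphingomyelinase needed for bone mineralization, went from 2.95, 24.1 and 13.7 to 732, 808 and 490.1 (log2 fold change 6.28 ± 0.34, adjusted p = 3.56e-11). *Sparc*, which encodes the collagen-binding osteonectin, went from 4918, 4492 and 7906 to 34693.5, 32705 and 54946 (log2 fold change 3.48 ± 0.20, adjusted p = 5.60e-11). *Ggcx*, the carboxylase that modifies osteocalcin, rose too (log2 fold change 1.58 ± 0.24, adjusted p = 1.76e-05). So did *Vkorc1*, the reductase of the vitamin K cycle (log2 fold change 2.25 ± 0.20, adjusted p = 1.51e-08). *Galnt3*, which glycosylates FGF23, was higher as well (log2 fold change 4.37 ± 0.33, adjusted p = 1.67e-09).

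Inhibitors and transporters were among those that fell. *Enpp3* fell most of the list (log2 fold change -5.17 ± 0.40, adjusted p = 2.85e-09). *Fam20a* (log2 fold change -3.46 ± 0.30), *Tgm2* (-2.91 ± 0.32) and *Slc20a1* (-1.29 ± 0.51) were also called lower. Alternatives are not given for these genes in osteoblasts. *Mgp*, which encodes the mineralization inhibitor matrix Gla protein, was at 1522, 1002 and 1212 in metaphyseal stroma and at 9.71, 15.6 and 126 in osteoblasts (log2 fold change -4.28 ± 0.77, adjusted p = 1.32e-04). *Ank*, whose product exports ATP and pyrophosphate, fell with *Enpp1* (log2 fold change -1.03 ± 0.36, adjusted p = 0.0251), but lost its call in 6 of 16 alternatives. *Slc20a2*, a phosphate transporter, had a mean of 396 ± 40.5 CPM in metaphyseal stroma and 11.9 ± 2.76 in osteoblasts (SD, 3 libraries), a fall that passed the test (log2 fold change -4.41 ± 0.21, adjusted p = 1.77e-11), and *Vdr*, the vitamin D receptor, fell too (log2 fold change -0.85 ± 0.16, adjusted p = 2.10e-04). None of the 24 was called in *Dmp1* cells against other osteoblasts by edgeR or DESeq2, while 9 were higher and 2 lower at an unadjusted p under 0.05. Of all genes, 0.116% were called higher and 0.0534% lower in that comparison. Chondrocytes had 15 higher and 5 lower, beside 19.0% and 22.1% of all genes. Septoclasts had 3 and 6, beside 2.11% and 2.63%. Chondrocytes with *Col10a1* had 7 and 2 of 23, beside 9.08% and 10.0%. *Sost*, *Fgf23* and *Dspp* did not pass the filter.

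The genes most like each member were sought over the 18 sums of 6 populations in 3 libraries, which share depth and library, so the correlations (Pearson's r of log2 levels) are descriptions. *Bglap* was most like *Ndufa1* and *Lipc* with r of 0.96 and 0.95, and *Bglap2* was most like *Ndufa1* and *Bambi* with r of 0.96 and 0.95. *Alpl* was most like *Mgll* and *Spata13* with r of 0.97 and 0.95, and *Enpp1* was most like *Emb* and *Atp6v1a* with r of 0.93 and 0.93. *Spp1* was most like *Ccdc80* and *Pabpc1* with r of 0.88 and 0.88. *Ibsp* was most like *Xbp1* and *Creb3l1*, genes of secretory cells, with r of 0.90 and 0.87. *Phex* was most like *Frmd4b* and *Satb1* with r of 0.86 and 0.85. For *Dmp1*, whose level was set by the gate, the closest were *Ift57* and *Ugdh* with r of 0.58 and 0.49. *Phospho1* was closest to *Azin1* and *Rcn1* with r of 0.88 and 0.85, and *Mepe* to *Anapc5* and *Abr* with r of 0.62 and 0.60, but these rest on 47 and 154 UMIs, and nothing is read from them.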

How the data were processed

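Droplet-based single-cell RNA-seq (10x Chromium 3′ chemistry) was made from 3 libraries. The authors demultiplexed reads with bcl2fastq, trimmed them with fastp 0.20 and aligned them to mm10 with STAR 2.7.3a in its STARsolo mode, per the methods and the submitters' processing notes. They deposited unfiltered UMI counts per gene and barcode, with a Gencode M23 annotation extended by the H2B-GFP transgene. Reads that fit more than 1 gene were not counted.

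From these deposited counts, a barcode was kept as a cell where 1500 genes (metaphyseal libraries) or 1000 genes (*Pdgfra-GFP*) had a UMI and where mitochondrial and ribosomal UMIs stayed within 15% and 30%. Populations were gated by the number of markers with a UMI: at least 5 of 7 for osteoblasts and for chondrocytes, 5 of 6 for marrow stroma, 3 of 5 for metaphyseal stroma and 5 of 8 for septoclasts. Septoclasts also needed at least 2 of the 3 markers *Sstr2*, *Cd55* and *Otos*. These numbers were set after the detection of the markers had been seen. Cells that passed more than 1 gate, or carried markers of endothelial, haematopoietic, erythroid, mural or fibroblast cells past a limit, were left out of the mesenchymal populations. Osteoblasts with 1 *Dmp1* UMI were left out. Doublets called with Scrublet were kept and removed in an alternative. The libraries held 25243314, 22082735 and 91747759 UMIs.

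UMIs were summed per library and population (at least 10 cells) and tested with edgeR 4.0.16 (R 4.3.3), quasi-likelihood test, TMM, filterByExpr, library as block, Benjamini-Hochberg adjustment over all genes and a threshold of 0.05. Genes used by the gates took part in the fit and the adjustment. They were left out of the counts of genes tested and called, and their own differences are not reported as tests. Library blocks were used because populations of a library come from 1 cell suspension, and deviations of same-library pairs correlated with a median r of 0.45 (from 0.08 to 0.83 over 45 pairs, 44 of them over 0.1). Alternatives were DESeq2 1.42.0 and its size factors, no filter, no block, each library left out, doublets removed, 1000 genes in every library, cells thinned to 2000 UMIs, stricter gates, osteoblasts gated without *Ifitm5*, other *Dmp1* limits, and, added after seeing the data, osteoblasts with and without *Dmp1* together and total UMIs in place of TMM. The fit was also run on simulated counts. There the populations of a library differed only in genes changed by known folds, unlike the real populations, and no result here rests on it. Levels carry exact 95% Poisson intervals, which cover counting error only.

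All 10 members are named. Of the other mineralization genes, those that passed a test along the lineage could be named, and for each member the 2 genes with the highest Pearson's r of log2(CPM + 1) among genes with a mean of at least 20 CPM. The members and the lists were chosen with earlier results of these data known. Positions and coding sequences come from Gencode M21 on GRCm38, and upstream windows from RefSeq on GRCm38.p6.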

Additional observations from a re-analysis of the deposited data

Results flagged for a closer look

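Some values moved one way in both metaphyseal libraries and the opposite way in the *Pdgfra-GFP* library. The ratio of *Bglap* CPM in *Dmp1* cells to those in osteoblasts was 1.68 and 1.91 in metaphyseal replicates 1 and 2 and 0.943 in the *Pdgfra-GFP* library. For *Bglap2* the ratios were 1.72, 1.74 and 0.983. The ratio of *Ibsp* in chondrocytes to metaphyseal stroma was 0.478, 0.464 and 2.80. That of *Enpp1* in chondrocytes with *Col10a1* to other chondrocytes was 1.34, 1.95 and 0.637. None of these differences between libraries was tested, since the *Pdgfra-GFP* group has 1 library.

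Cells outside the gated populations carried *Dmp1*. At least 2 *Dmp1* UMIs were found in 4.46%, 4.50% and 3.69% of the cells in no population, above the share in endothelial cells of the same library. The share was not particular to these cells. It was 5.48%, 5.45% and 2.98% in metaphyseal stroma and 5%, 11.8% and 0.189% in chondrocytes.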

How the results depend on the processing

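The direction of every called member in osteoblasts against metaphyseal stroma was kept under all alternatives. There, 4674 genes were called, 2943 with no replicate block, 1706 with cells thinned to 2000 UMIs and 7713 on the scale of total UMIs, and between 3440 and 3885 without 1 library. In *Dmp1* cells against other osteoblasts 19 were called, 75 with no filter, 1 with no replicate block, 5 with thinned cells, 3 with 1 more marker in every gate, 32 with 1 more *Dmp1* UMI and 82 with the *Dmp1* gate on thinned cells, and between 2 (without metaphyseal replicate 2) and 107 (without the *Pdgfra-GFP* library) without 1 library. Members called there numbered 1, but 0 with DESeq2, no replicate block, total UMIs, 1 more marker or osteoblasts gated without *Ifitm5*, 2 with no filter or the *Dmp1* gate on thinned cells, and 0 to 4 without 1 library. In chondrocytes 4618 genes became 1591 with thinned cells, and 4 members became 2 with no replicate block. In septoclasts 532 became 183 with no replicate block and 191 with thinned cells (183 to 366 without 1 library, lowest without the *Pdgfra-GFP* library), and 3 members became 0 with no replicate block (1 to 4 without 1 library). In chondrocytes with *Col10a1* 2005 became 1156 with no replicate block and 506 with thinned cells (969 to 1978 without 1 library, lowest without metaphyseal replicate 1), and 5 members became 3 to 4 without 1 library. With no replicate block 10 calls of single named genes were lost: *Alpl* and *Ank* in osteoblasts, *Phex* in *Dmp1* cells, *Bglap* and *Bglap2* in chondrocytes, these 2 with *Alpl* and *Slc20a1* in septoclasts, and *Ibsp* in chondrocytes with *Col10a1*.

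The sign of some log2 fold changes turned, and the cause was not tested. With the *Dmp1* gate on thinned cells, *Bglap* was at -1.22 and *Bglap2* at -1.26 in *Dmp1* cells. In chondrocytes, *Spp1* was at 0.19 without the *Pdgfra-GFP* library (from -0.51 without 1 library), 0.24 with 1000 genes in every library, 0.27 with thinned cells and 0.024 with osteoblasts gated without *Ifitm5*. *Ibsp* was at -0.72 without the *Pdgfra-GFP* library (up to 0.80 without another) and -0.048 on total UMIs, *Dmp1* at 0.24 without that library (down to -2.09 without another) and 0.49 with 1000 genes, and *Phex* at -0.39 with thinned cells. In septoclasts *Ibsp* was at -0.015 with no filter, -0.30 without metaphyseal replicate 2 (0.43 without replicate 1) and -0.063 with thinned cells. In chondrocytes with *Col10a1*, *Enpp1* was at 0.085 with DESeq2, 0.063 with no replicate block and 0.56 without the *Pdgfra-GFP* library (-0.52 without metaphyseal replicate 2), where *Bglap* was at -0.44 and *Bglap2* at -0.90 (up to 0.49 and 0.59 without another library). The population with the highest level held for 8 to 10 of the 10 members. Stricter gates left too few septoclasts for a fit.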

Other observations

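Phosphate transporters differed between metaphyseal stroma, septoclasts and chondrocytes. *Slc20a2* was at 402, 352 and 432 CPM in metaphyseal stroma (metaphyseal replicates 1 and 2, then *Pdgfra-GFP*), at 155, 109 and 77.1 in septoclasts and at 21.9, 16.2 and 13.1 in chondrocytes. It was lower than in metaphyseal stroma in septoclasts (log2 fold change -2.07 ± 0.22, adjusted p = 1.15e-05) and in chondrocytes (log2 fold change -4.29 ± 0.23, adjusted p = 1.03e-11). *Slc20a1*, the related transporter, ran the other way, with 2.95, 8.05 and 6.05 in metaphyseal stroma, 48.3, 23.4 and 25.7 in septoclasts and 35.4, 75.3 and 39.4 in chondrocytes. Both differences passed the test (log2 fold change 2.16 ± 0.49, adjusted p = 0.00989 in septoclasts and log2 fold change 3.19 ± 0.35, adjusted p = 2.66e-07 in chondrocytes), but that in septoclasts was lost without the *Pdgfra-GFP* library (adjusted p = 0.193) and with no replicate block. In metaphyseal replicates 1 and 2, 3 UMIs would give 4.42 and 6.04 CPM in metaphyseal stroma and 29.0 and 23.4 in septoclasts. The *Slc20a1* values of these sums thus rest on very few UMIs. *Mgp*, the inhibitor that was scarce in osteoblasts, was highest in chondrocytes, at 25919, 26747 and 17102 (log2 fold change 4.72 ± 0.75, adjusted p = 2.82e-05). These 3 genes were picked from the mineralization list after their values had been seen.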
